A study of Mus musculus with 9 samples.

Results

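Matricellular proteins are secreted into the extracellular matrix, where they act mainly as adaptors between collagen, growth factors, proteases and cell-surface receptors rather than as load-bearing fibres. Several of them are known to rise in the ventricle after infarction and under pressure overload, when fibroblasts become activated. Transcripts of 9 genes of this kind were followed here, namely *Fn1*, *Spp1*, *Postn*, *Tnc*, *Thbs1*, *Thbs2*, *Thbs4*, *Sparc* and *Comp*, out of 52636 genes in the table. The genes were taken by symbol, all 9 were found, and all 9 were among the 16322 genes that passed the expression filter.

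Left ventricular total RNA of C57BL6J mice aged 16 weeks was sequenced in 9 libraries. Of these, libraries 1 to 5 carry the genotype VDAC2 WT and libraries 6 to 9 the genotype VDAC2 KO. By the study's methods the KO came from floxed *Vdac2* and the αMHC-Cre transgene, which acts in heart muscle cells, so the other cells of the ventricle keep the gene, and the WT were littermates with either flox or Cre. *Vdac2*, which encodes a porin of the outer mitochondrial membrane, did not follow these labels. Its level, in CPM (a gene's reads scaled to the TMM-normalized size of its library), was 20.2, 366, 58.5, 365 and 21.3 in libraries 1 to 5 and 384, 20.5, 421 and 19.1 in libraries 6 to 9. Groups are therefore called labelled WT and labelled KO, and no library was moved between them.

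The libraries were also set side by side in a way chosen by the measured *Vdac2* level. Libraries 1, 5, 7 and 9 lay under 100 CPM (19.1 to 21.3) and libraries 2, 4, 6 and 8 over 300 CPM (365 to 421). Library 3, labelled WT, was at 58.5 CPM, also under 100, and is shown apart. These sets rest on a value measured in the same libraries and are not genotypes, so they are described library by library, with no mean and no test. Each set holds 2 libraries of each label.

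Library 3 stood apart in many genes besides these. The summed level of 8 cardiomyocyte markers, among them *Myh6*, the main heavy chain of adult heart muscle myosin, was 14388 CPM there, against 52034 to 71699 CPM in the other 8 libraries. Library totals ran from 27345052 to 44673988 counts, and 3 counts, taken as the smallest level shown, equal 0.0693 to 0.114 CPM (counting error only). The labels coincide with the sex-linked transcripts. *Xist* had at least 14512 counts in every library labelled KO and at most 4 in those labelled WT. The sample titles name no sequencing batch, so a batch that follows the labels may be present too. Of 5 atrial markers read beside the ventricular label, *Sln* had at most 2 and *Bmp10* at most 8 counts in any library. *Myl7* was at 0.12 to 1.13 CPM, *Myl4* at 1.59 to 2.99 CPM and *Nr2f2* at 4.46 to 8.71 CPM.

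To show where the transcripts whose levels the account turns on begin, the 200 bases before the start site of *Spp1*, *Tnc* and *Postn*, and of *Thbs2* as a gene whose sets overlapped, are given 5′ to 3′ from RefSeq on GRCm38.p6. Promoters were matched for 6 of the 9 genes (*Spp1*, *Postn*, *Tnc*, *Thbs2*, *Thbs4* and *Sparc*) at the start site nearest the GENCODE 5′ end, which lay within 27 bases of that end for 5 of them and 3103 bases inside it for *Sparc*. Capitals mark the letters searched for on both strands, which were TATAAA (known from the TATA box), TGANTCA (bound by AP-1), CATTCC (bound by TEAD factors) and CCAAT (bound by NF-Y).
*Spp1*, chr5:104434911-104435110, plus strand: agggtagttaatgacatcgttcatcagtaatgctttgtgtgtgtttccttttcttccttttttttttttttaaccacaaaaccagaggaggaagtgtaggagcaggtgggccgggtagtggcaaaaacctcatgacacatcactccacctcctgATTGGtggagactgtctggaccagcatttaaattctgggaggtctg
*Tnc*, chr4:64047016-64047215, minus strand: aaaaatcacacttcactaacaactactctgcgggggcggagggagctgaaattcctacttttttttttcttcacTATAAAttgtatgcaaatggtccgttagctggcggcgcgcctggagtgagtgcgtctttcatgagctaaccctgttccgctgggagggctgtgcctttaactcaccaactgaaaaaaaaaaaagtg
*Postn*, chr3:54360907-54361106, plus strand: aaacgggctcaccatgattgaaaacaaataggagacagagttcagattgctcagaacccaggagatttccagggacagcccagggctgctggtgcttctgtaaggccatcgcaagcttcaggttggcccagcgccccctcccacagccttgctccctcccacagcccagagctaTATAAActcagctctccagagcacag
*Thbs2*, chr17:14694263-14694462, minus strand: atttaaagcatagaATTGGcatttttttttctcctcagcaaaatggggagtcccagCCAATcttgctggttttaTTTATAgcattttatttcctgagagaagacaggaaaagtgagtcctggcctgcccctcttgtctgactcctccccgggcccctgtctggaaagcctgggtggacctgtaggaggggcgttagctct

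TATAAA was in 3 of the 6 windows and in 9.96% of 32851 windows of this length. In *Postn* it lay 26 to 21 bases before the start, in *Tnc* 126 to 121 bases and in *Thbs2* 126 to 121 bases before it on the opposite strand. CCAAT was in 2 of the 6 windows (29.3% of all), CATTCC in 1 of 6 (10.1%), where 2 matches overlap by 1 base in *Thbs4*, and TGANTCA in 0 of 6 (5.48%). The *Sparc* window, which may not be the main promoter, held none of the 4. These are matches of letters only.

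*Vdac2*-low libraries held more transcript of most of these genes. In 6 of the 9 genes (*Fn1*, *Spp1*, *Postn*, *Tnc*, *Thbs1* and *Sparc*) every library under 100 CPM of *Vdac2* was above every library over 300 CPM, against 7.16% of all genes tested, and 0 of the 9 lay the other way, against 4.93%. The same 6 genes did so when library 3 was counted with the low libraries (5.98% of all genes). They also did so inside each label, 2 libraries beside 2 (11.3% of all genes). Because the contrast is the one used to form the sets, nothing further is read from these counts. In whole tissue, fewer cells of a type and less RNA per cell cannot be told apart.

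**Figure D1:**
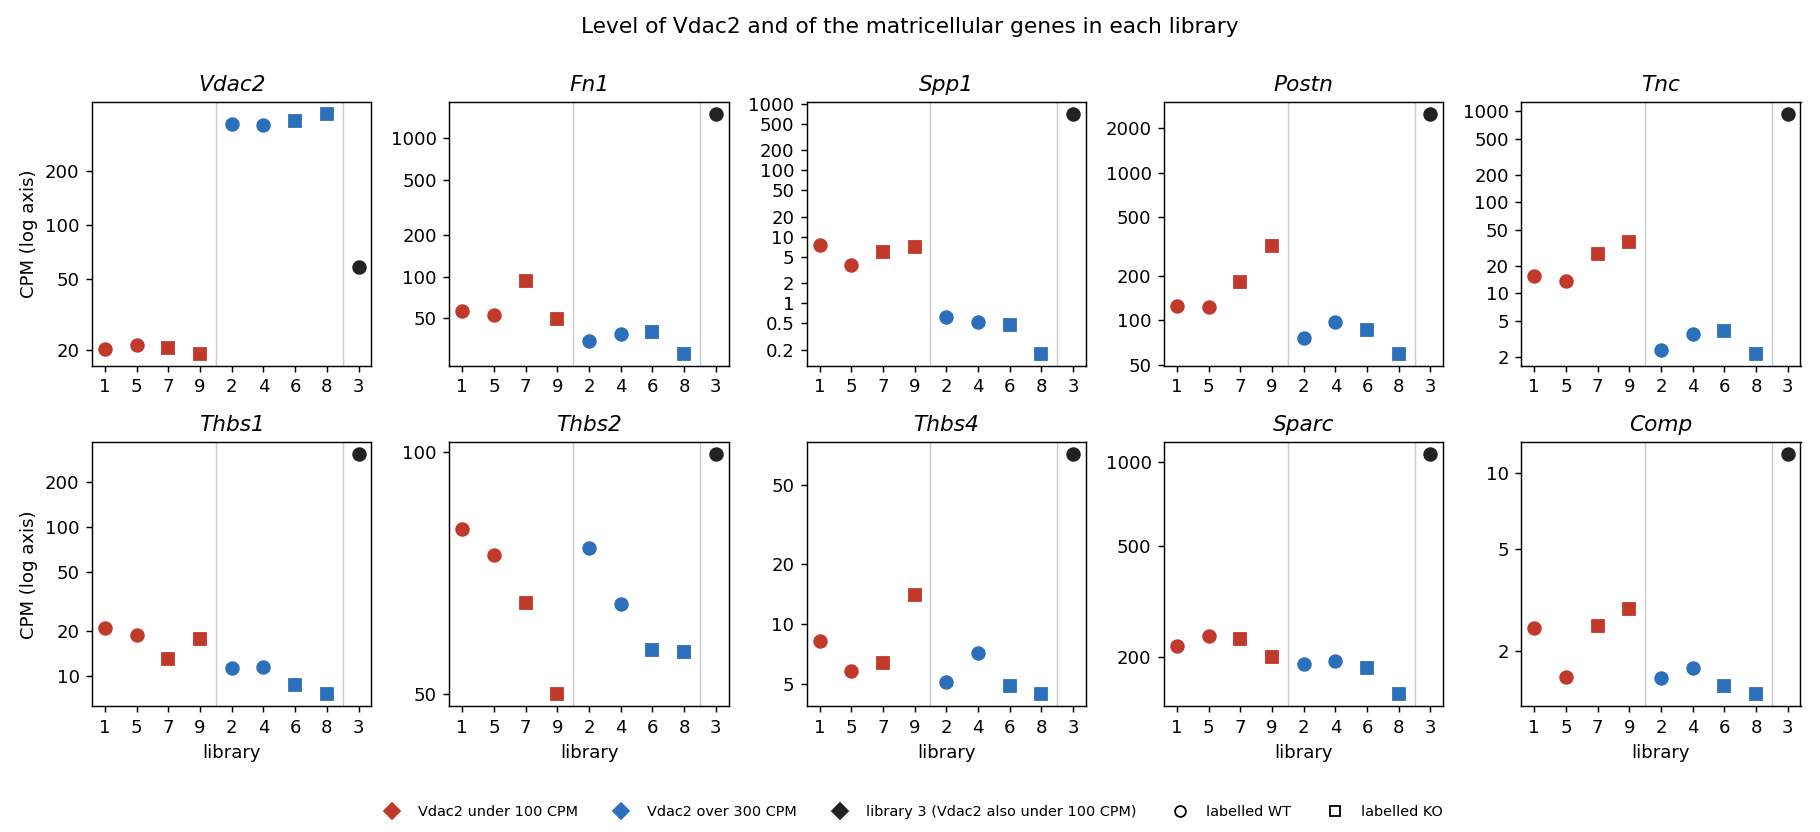
CPM on a log axis for *Vdac2* and each matricellular gene, 1 point per library, with libraries ordered by *Vdac2* set, colour giving the set and shape the deposited label. Library 3 is the highest library for all 9 matricellular genes, and among these *Spp1* and *Tnc* show the widest step between the other sets.

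*Spp1* (ENSMUSG00000029304, chromosome 5 of GRCm38 from 104435118 to 104441050) encodes osteopontin, a phosphoprotein that binds integrins and CD44 and is made in quantity by activated macrophages. It was at 7.52, 3.81, 6.04 and 7.09 CPM in libraries 1, 5, 7 and 9 and at 0.622, 0.533, 0.477 and 0.177 CPM in libraries 2, 4, 6 and 8. The lowest of the former was 6.13 times the highest of the latter, the widest step of the 9 genes. In reads this is 125 to 307 counts beside 6 to 18. In library 3 it reached 715 CPM (26494 counts), 95.1 times the next library. The annotation places *Gm42793* on the same strand over 309 of the 1648 exonic bases of *Spp1*, and *Gm42793* itself had 29 counts in library 3 and at most 1 elsewhere.

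*Tnc* (ENSMUSG00000028364, chromosome 4 from 63959785 to 64047015) encodes tenascin-C, a large glycoprotein of developing and wounded tissue that loosens cell adhesion. Libraries 1, 5, 7 and 9 were at 15.4, 13.8, 27.3 and 36.7 CPM and libraries 2, 4, 6 and 8 at 2.38, 3.58, 3.85 and 2.18 CPM, a nearest ratio of 3.59. Inside the labels the ratio was 3.86 among those labelled WT and 7.11 among those labelled KO. Library 3 was at 946 CPM, 25.7 times the next.

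*Postn* (ENSMUSG00000027750, chromosome 3 from 54361109 to 54391037) encodes periostin, which helps collagen to cross-link and is widely used as a mark of activated cardiac fibroblasts. It was at 124, 124, 182 and 316 CPM in libraries 1, 5, 7 and 9, and at 76.2, 97.0, 85.8 and 59.4 CPM in libraries 2, 4, 6 and 8. The nearest values differed by 1.27 times, by 1.27 times among the libraries labelled WT and by 2.13 times among those labelled KO. Library 9, labelled KO, was the highest of these 8, and library 3 lay above it at 2508 CPM.

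*Fn1* (ENSMUSG00000026193, chromosome 1 from 71585520 to 71653200) encodes fibronectin, the adhesive scaffold on which other matrix proteins assemble. The 4 low-*Vdac2* libraries were at 56.9, 53.4, 93.1 and 49.5 CPM, in the order 1, 5, 7 and 9, and libraries 2, 4, 6 and 8 at 34.5, 38.5, 39.7 and 27.95 CPM. The nearest values differed by 1.25 times. Library 3 was at 1492 CPM, 16.0 times library 7, the next highest. Counts per gene do not separate the plasma and cellular splice forms of fibronectin.

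*Sparc* (ENSMUSG00000018593, chromosome 11 from 55394500 to 55423183) encodes a collagen-binding protein that takes part in processing procollagen at the cell surface. The step was the narrowest of the 6, with 219.9, 238, 232 and 199.6 CPM in libraries 1, 5, 7 and 9 beside 189, 193, 182 and 147 CPM in libraries 2, 4, 6 and 8. The nearest values differed by 1.03 times. Library 3 was at 1067 CPM.

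Thrombospondins are secreted, calcium-binding glycoproteins built as trimers or pentamers. *Thbs1* (ENSMUSG00000040152, chromosome 2 from 118111876 to 118127133), which can activate latent TGF-β and inhibits vessel growth, was at 21.0, 19.0, 13.1 and 17.7 CPM in libraries 1, 5, 7 and 9 and at 11.4, 11.6, 8.83 and 7.59 CPM in libraries 2, 4, 6 and 8. Its nearest ratio was 1.14 over all 8 libraries and was wider inside the labels, at 1.65 (labelled WT) and 1.49 (labelled KO), since both sets were lower in the libraries labelled KO. Library 3 was at 307 CPM, 14.6 times the next.

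*Thbs2* (ENSMUSG00000023885, chromosome 17 from 14665500 to 14694235), its close relative, overlapped between the sets. It was at 80.3, 74.5, 65.0 and 49.95 CPM in libraries 1, 5, 7 and 9, and at 75.9, 64.6, 56.7 and 56.4 CPM in libraries 2, 4, 6 and 8. The gene also gained least in library 3, where 99.4 CPM was 1.24 times the next library. In both sets the libraries labelled WT lay above those labelled KO.

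*Thbs4* (ENSMUSG00000021702, chromosome 13 from 92751590 to 92794818) and *Comp* (ENSMUSG00000031849, chromosome 8 from 70373558 to 70382066) encode pentameric thrombospondins, the former known from injured heart muscle and tendon, the latter from cartilage. *Thbs4* was at 8.17, 5.77, 6.33 and 13.9 CPM in libraries 1, 5, 7 and 9 and at 5.12, 7.11, 4.85 and 4.41 CPM in libraries 2, 4, 6 and 8, so the sets overlapped. *Comp* was at 2.46, 1.59, 2.504 and 2.91 CPM in the former libraries and at 1.57, 1.71, 1.46 and 1.35 CPM in the latter, and overlapped through library 5 alone, which lay under library 4 and just above library 2. For both genes the libraries labelled KO did not overlap (nearest ratios 1.30 and 1.72), while those labelled WT did. Without library 4 both genes, and without library 5 *Comp*, joined the 6 above. Smaller sets lie apart more readily. The share of all genes was counted neither inside a single label nor with a library left out, so nothing is read from these separations. Library 3 was again highest, at 71.2 CPM for *Thbs4* and 11.8 CPM for *Comp*. *Comp* had 43 to 126 counts outside library 3. Of the defining cartilage genes *Acan* and *Col2a1* had at most 7 and 3 counts in any library.

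Per kilobase of exon, the order of the genes differed between the sets. In libraries 2, 4, 6 and 8 *Sparc* led at 38.9 to 51.1 CPM per kilobase, followed by *Postn* (6.83 to 11.2) and *Thbs2* (8.05 to 10.8), whose ranges overlapped, and then *Fn1* (2.39 to 3.40). *Thbs4* (1.34 to 2.16) and *Thbs1* (1.25 to 1.90) overlapped, as did *Comp* (0.456 to 0.577) with *Tnc* (0.280 to 0.495), and *Tnc* with *Spp1* (0.107 to 0.377). In libraries 1, 5, 7 and 9 *Tnc* (1.78 to 4.73) and *Spp1* (2.31 to 4.56), the last genes in the order of the other set, overlapped *Thbs1* (2.16 to 3.45) and lay above *Comp* (0.535 to 0.980). In library 3 *Spp1* was the most abundant of the 9 per length, at 434 CPM per kilobase, ahead of *Postn* (288), *Sparc* (282), *Fn1* (128) and *Tnc* (122), and *Comp* was last at 3.97.

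**Figure D2:**
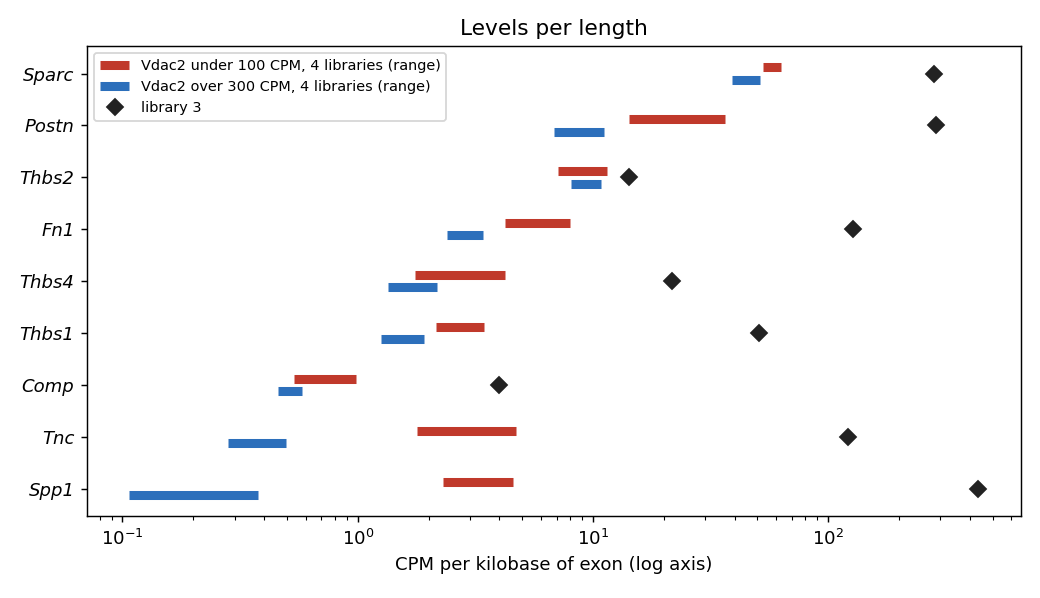
CPM per kilobase of exon, on a log axis, for the 9 genes in order of their highest level in libraries 2, 4, 6 and 8. Bars span the lowest to the highest of 4 libraries in each *Vdac2* set and diamonds are library 3, in which *Spp1* is at 434 and *Comp* at 3.97.

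Library 3 was the highest of the 9 libraries for all 9 genes, against 37.7% of all genes tested, by between 1.24 times (*Thbs2*) and 95.1 times (*Spp1*) the next library. The 9 genes together summed to 7218 CPM there, against 533 to 694 CPM in libraries 1, 5, 7 and 9 and 307 to 418 CPM in libraries 2, 4, 6 and 8.

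The labels ask whether loss of *Vdac2* from heart muscle goes with a change in these transcripts, but *Vdac2* itself does not separate them. Between the deposited labels, 0 of the 9 genes passed an adjusted p of 0.05 in edgeR's quasi-likelihood test, in which 9 of the 16322 genes tested did (0.0551%). At an unadjusted value under 0.05 there were 2 of the 9, *Thbs1* and *Thbs2*, and 997 genes in all (6.11%). Without library 3 *Thbs1* was no longer under it (unadjusted p of 0.21 in edgeR), while *Thbs2* was (0.0014). DESeq2 also called 0 of the 9, although it gave no adjusted p for 8 of them. All 9 estimates were lower in the libraries labelled KO, with a median log2 fold change of -1.86 beside -0.02 over all genes tested. Without library 3, 6 of the 9 estimates were higher in the libraries labelled KO.

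*Spp1* had the largest estimate, with -5.39 on the log2 scale, a standard error of 2.41 and an adjusted p of 0.68 by edgeR, and stood at 0.14 (standard error 1.20) when library 3 was left out. *Tnc* went from -3.48 (standard error 1.93) to 0.98 (standard error 1.04), *Fn1* from -2.67 to 0.19 and *Postn* from -1.86 to 0.61. *Thbs4* and *Comp* moved from -1.40 to 0.17 and from -0.90 to 0.17. *Thbs1* and *Sparc* kept their sign, from -2.65 to -0.42 and from -1.003 to -0.15. For *Postn*, libraries labelled WT averaged 586 ± 1075 CPM (SD, n = 5), while the KO label averaged 161 ± 116 CPM (SD, n = 4). The spread of the WT label comes from library 3 (2508 CPM), its other 4 libraries lying between 76.2 and 124 CPM, within the range of the KO label (59.4 to 316 CPM).

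*Thbs2* was the exception in precision. Libraries labelled WT averaged 78.9 ± 12.8 CPM (SD, n = 5), while the KO label averaged 57.0 ± 6.16 CPM (SD, n = 4). The estimate was -0.47 on the log2 scale, with a standard error of 0.13, an unadjusted p of 0.0057 and an adjusted p of 0.68 from edgeR over all genes, while permuting the labels exactly (two-sided, log2 CPM) gave p = 0.024, where 0.0079 is the smallest the design allows. Without library 3 it was -0.38 (standard error 0.090, adjusted p = 0.13), within a range of 0.13 to 0.90 over the alternatives. The labels overlapped by a single pair of libraries, 4 (labelled WT, 64.6 CPM) and 7 (labelled KO, 65.0 CPM). The exact tests of the other 8 genes gave unadjusted p between 0.22 (*Thbs1*) and 0.79 (*Postn*). Sex-linked transcripts, and any batch that follows the labels, cannot be told apart from the label in this comparison.

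**Figure D3:**
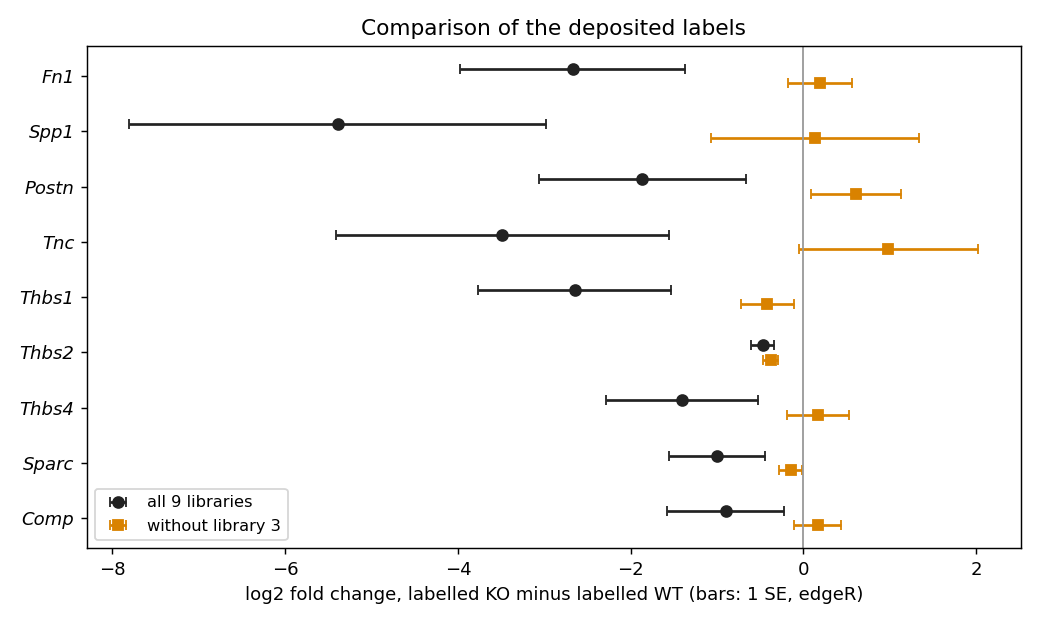
Log2 fold change of each gene, labelled KO minus labelled WT, with bars of 1 standard error from edgeR, for all 9 libraries (circles) and without library 3 (squares). Every circle is below 0, 6 of the 9 squares are above 0, and *Thbs2* has the shortest bars.

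Other matricellular genes were read from a list of 20, of which 15 passed the expression filter. Between the labels 0 were called in either direction and 1 had an unadjusted p under 0.05 (6.11% of all genes), *Smoc2*, a modular calcium-binding matrix protein gene which was higher by 0.62 on the log2 scale in the libraries labelled KO, with an adjusted p of 0.30 by edgeR. Between the *Vdac2* sets 4 of the 15 (*Thbs3*, *Ccn2*, *Ccn4* and *Tgfbi*) were higher in every low library and 0 lower, against 7.16% and 4.93% of all genes tested. *Ccn4*, a Wnt-induced signalling protein of the matrix, had the widest step, 4.76 to 5.83 CPM beside 2.05 to 3.27 CPM. *Ccn2*, or connective tissue growth factor, was at 61.2 to 232 CPM beside 36.5 to 50.9 CPM and at 1142 CPM in library 3. Of the 5 not tested, *Ibsp*, the bone relative of osteopontin, had at most 1 count.

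Of 18 receptor genes for these proteins, all tested, 0 were called between the labels and 1 (*Lrp1*) had an unadjusted p under 0.05, against 6.11% of all genes. In the *Vdac2* sets 3 were higher in every low library (*Cd44*, *Itga4* and *Sdc4*) and 2 lower (*Itga9* and *Itgb6*), against 7.16% and 4.93% of all genes tested. *Cd44*, a receptor of osteopontin and hyaluronan, was at 27.5, 25.1, 22.1 and 21.1 CPM in libraries 1, 5, 7 and 9, at 14.6, 14.9, 13.4 and 11.7 CPM in libraries 2, 4, 6 and 8, and at 146 CPM in library 3. *Itga9*, which pairs with β1 integrin as a receptor of tenascin-C and osteopontin, lay the other way, at 51.8 to 58.2 CPM beside 68.4 to 76.6 CPM, but was at 107 CPM in library 3. The common β1 chain, *Itgb1*, overlapped between the sets, at 515 to 570 CPM beside 520 to 567 CPM.

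Marker lists of other cells differed in how many of their genes lay apart between the *Vdac2* sets. Of 9 macrophage markers 5 were higher in every low-*Vdac2* library and all 9 were so inside each label, where 7.16% and 11.3% of all genes tested did the same. The list summed to 353 to 522 CPM in libraries 1, 5, 7 and 9, to 235 to 338 CPM in libraries 2, 4, 6 and 8 and to 1137 CPM in library 3. *Lgals3*, which encodes the macrophage lectin galectin-3, had the widest step, 8.15 to 12.8 CPM beside 2.56 to 4.11 CPM. Of 8 fibroblast markers 3 were higher (*Tcf21*, *Col1a2* and *Dpt*) and 5 were so inside each label, and the sum of the list, 2675 to 2949 CPM, overlapped that of the other set, 2171 to 2699 CPM. In library 3 the list summed to 3180 CPM, of which the collagen genes *Col1a2* and *Col1a1* made up 1412 and 691 CPM. Its members went both ways there, 4 of 8 being highest in library 3 (37.7% of all genes) while *Dcn* (454 CPM), *Gsn* (252 CPM) and *Dpt* (70.4 CPM) were at their lowest of the 9 libraries. Of 6 activated fibroblast markers 2, *Cthrc1* and *Lox*, were higher, and 2 were so inside each label. *Lox*, the collagen cross-linking enzyme, was at 9.34 to 14.3 CPM beside 2.03 to 6.43 CPM and at 645 CPM in library 3, while *Acta2*, smooth muscle actin, overlapped between the sets.

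The cardiomyocyte markers summed to 52034 to 59788 CPM beside 61778 to 71699 CPM, with 1 of 8 genes (*Myl3*) lower in every low library (4.93% of all genes) and 3 of 8 lower inside each label (8.58% of all genes). Of 5 endothelial markers 1 (*Pecam1*) was lower in every low library and 3 were so inside each label. The *Pecam1* sets almost met, at 150 to 173.50 CPM beside 173.56 to 189 CPM. The endothelial sums overlapped, at 446 to 593 CPM beside 565 to 692 CPM. Of 5 smooth muscle and pericyte markers 1 (*Kcnj8*) was lower and 2 were so inside each label, with overlapping sums of 833 to 1054 CPM beside 1003 to 1183 CPM. Of 5 atrial markers, of which 3 were tested, 1 (*Myl4*) was higher (7.16% of all genes). The *Myl4* sets also almost met, at 1.871 to 2.43 CPM beside 1.59 to 1.865 CPM. Neither the 2 cartilage and tendon markers tested, of 8, nor the 4 stress genes (summed, 7.22 to 15.4 CPM beside 6.87 to 8.75 CPM) held a gene whose sets lay apart. In library 3 the stress genes summed to 45.6 CPM. The part of cell content in the levels of the matricellular genes was not tested. Between the labels edgeR called 0 genes of these lists. At an unadjusted p under 0.05, which 6.11% of all genes tested had, there were 4 of 9 macrophage markers (*Csf1r*, *C1qa*, *C1qb* and *Mrc1*), 2 of 6 activated fibroblast markers (*Lox* and *Ltbp2*) and 1 gene each of the fibroblast (*Pdgfra*), cartilage and tendon (*Fmod*) and atrial (*Myl7*) lists, with 0 in the others. All of these estimates were lower in the libraries labelled KO. Library 3, labelled WT, was between 1.05 times (*Myl7*) and 45.1 times (*Lox*) the next library for these genes. It was 1.49 times the next for *C1qa* and 1.99 times for *Mrc1*. Estimates of the list genes without library 3 were not examined, so its part in these differences was not tested.

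**Figure D4:**
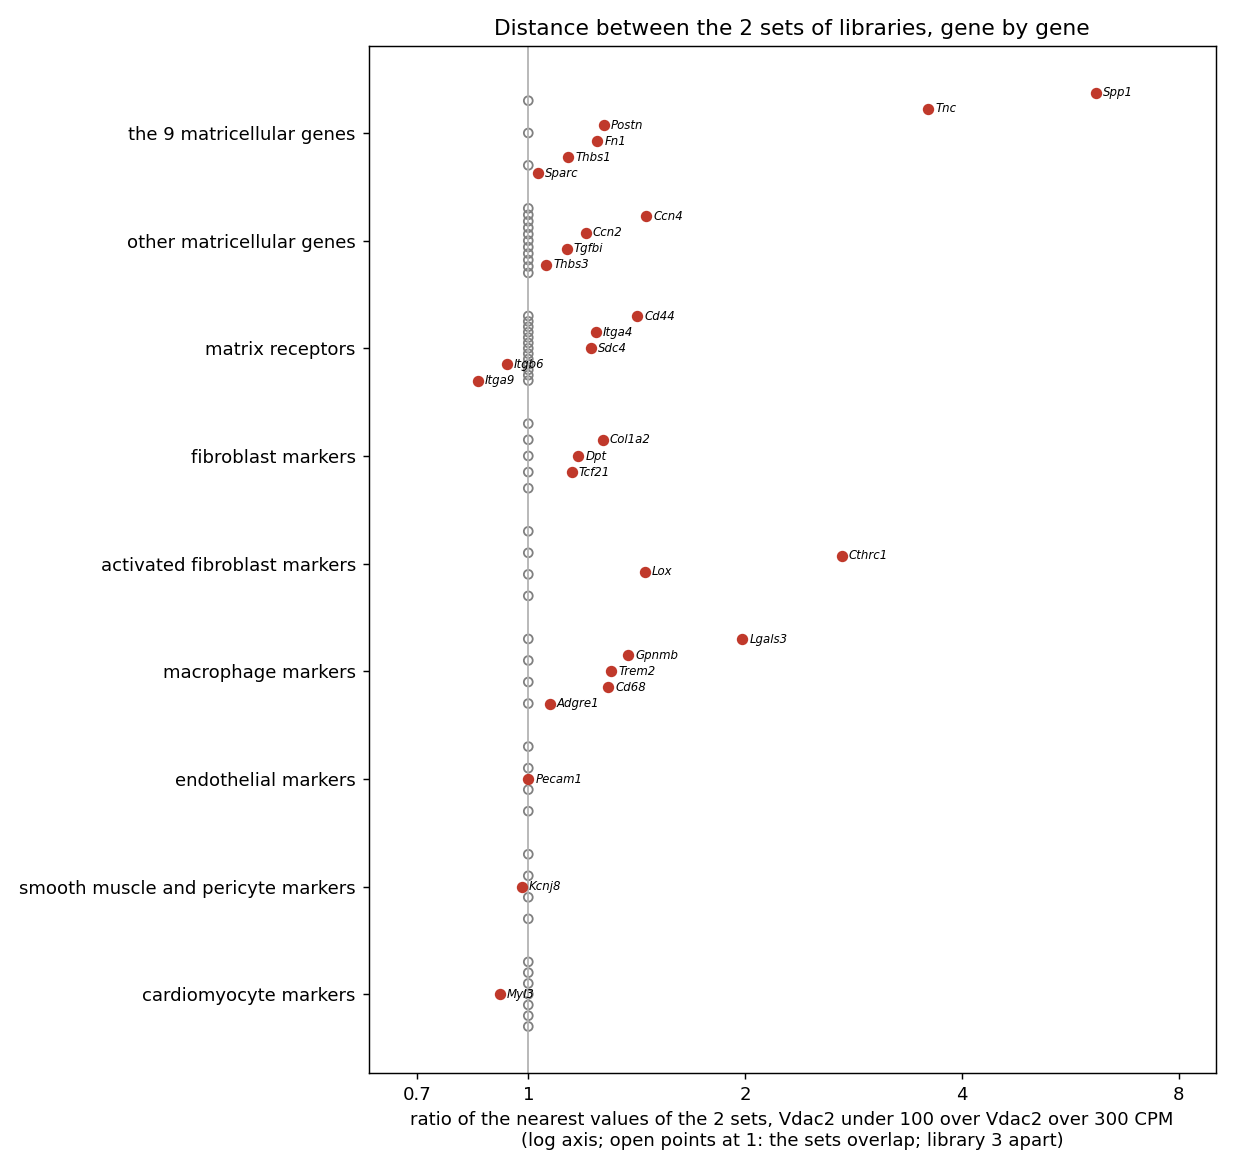
For each tested gene of each list, the ratio of the nearest values of the 2 *Vdac2* sets (log axis, library 3 apart). Filled, named points are genes whose sets do not overlap, open points at 1 are genes whose sets overlap, and *Spp1* (6.13) and *Tnc* (3.59) lie farthest to the right.

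Genes most like each member were ranked by Pearson's correlation of log2 CPM over the 8 libraries without library 3. The ranks are a description only, since these 8 libraries fall in 2 sets. *Fn1* was most like *Robo1*, *Bgn* and *Col1a2* (r = 0.967 to 0.972), *Postn* most like *Cyb5r3*, *Mfap5* and *Col8a1* (0.979 to 0.985), and *Tnc* most like *Emp1*, *Vim* and *Col3a1* (0.978 to 0.987). *Spp1* was most like *Map7d3*, *Adamts2* and *Mfsd7a* (0.985 to 0.994), and *Sparc* most like *Phgdh*, *Pik3r5* and *Inpp5d* (0.974 to 0.979). Among the thrombospondins, *Thbs1* was most like *Prg4*, *Ms4a6d* and *Ccl9* (0.976 to 0.980), *Thbs2* most like *Mib1*, *Mob1b* and *Gm20594* (0.972 to 0.982), *Thbs4* most like *Bend6*, *Fam45a* and *Homer3* (0.951 to 0.968), and *Comp* most like *Phldb2*, *Gm37215* and *Them6* (0.967 to 0.971).

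Sequence shared with other transcripts was small for most of these genes. Of the distinct 50-base stretches of each gene's transcripts, the length of the reads, 11.6% for *Spp1* also occurred in *Gm42793*, 2.51% for *Fn1*, 1.89% for *Thbs1*, 1.04% for *Tnc* and 0.601% for *Sparc* occurred in transcripts of other genes, and 0 did for *Postn*, *Thbs2*, *Thbs4* and *Comp*. The thrombospondin genes shared no such stretch with each other.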

How the data were processed

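The authors extracted total RNA from transmural left ventricular samples, removed ribosomal RNA, prepared stranded libraries, sequenced 50-base single-end reads on an Illumina instrument and aligned them to GRCm38, and deposited the counts of reads for each Ensembl gene as they were, not normalized. Their processing notes name STAR 2.7.2c, featureCounts 1.6.3 and DESeq2. The annotation release and the strand setting are not given in the sources used here. All 9 columns were matched to samples by title. Symbols were found for 52403 of the 52636 identifiers, and coordinates and exon lengths are from GENCODE M21.

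Labels were compared in edgeR 4.0.16 under R 4.3.3, after filterByExpr, with TMM normalization, robust dispersions and the quasi-likelihood F-test over 16322 genes, with Benjamini-Hochberg adjustment. The script was tested on simulated counts with known changes and no outlying library, so that test does not cover data that hold library 3. The standard error is the absolute log2 fold change over the square root of F. Nothing in the labels says which mice the libraries came from, so p-values measure the spread between these libraries. Alternatives were DESeq2 1.42.0, RLE normalization, no filter, plain totals, each library left out and, added after the data were seen, sets inside each label. The nearest ratio of a gene is the value of the low-*Vdac2* set over that of the other set, taken where the sets come closest. The 9 genes, the gene lists and the *Vdac2* sets were chosen with earlier results of these data known. The rule for named genes took the 9 genes and *Vdac2*, the genes of each list with the largest and smallest nearest ratio (applied here to genes whose sets do not overlap) and the 3 genes most like each of the 9. All other genes in the text were named after their values were seen.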

Additional observations from a re-analysis of the deposited data

Results flagged for a closer look

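Library 3, labelled WT, lay far from the other 4 libraries of its label for 8 of the 9 genes: *Fn1* (1492 CPM), *Spp1* (715 CPM), *Postn* (2508 CPM), *Tnc* (946 CPM), *Thbs1* (307 CPM), *Thbs4* (71.2 CPM), *Sparc* (1067 CPM) and *Comp* (11.8 CPM). In each, the gap to the next library, as a share of the label's whole range, was past the 95% limit of Dixon's test. *Thbs2* did not pass it, and no library labelled KO did for any of the 9 genes. Of 18 sets of values examined, chance would mark about 1 in 20 if values were normally distributed, but the CPM were not log-transformed. Library 3 was already shown apart when the sets were formed, and the 8 share 1 library, so nothing further is read from their number. The study states that 1 WT sample was left out of its sequencing analysis for RNA quality and does not name it, and whether that sample is library 3 was not tested.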

How the results depend on the processing

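No paired analysis was possible because the sample titles name no litter or pair. The count of genes called between the labels, 9 with edgeR on all libraries, was 62 with DESeq2 and 5 to 62 with each library left out, the 62 without library 3 and 5 without library 1, 2 or 4. Of the 9 genes, 0 were estimated higher under the KO label, and 0 to 6 with each library left out, the 6 again without library 3. Leaving out each library gave log2 fold changes of -3.10 to 0.19 for *Fn1*, -6.02 to 0.14 for *Spp1*, -2.42 to 0.61 for *Postn*, -4.14 to 0.98 for *Tnc*, -1.91 to 0.17 for *Thbs4* and -1.11 to 0.17 for *Comp*, each highest value being the fit without library 3. Signs held for *Thbs1* (-2.92 to -0.42), *Thbs2* (-0.54 to -0.38) and *Sparc* (-1.17 to -0.15). No alternative brought any of the 9 genes under an adjusted p of 0.05. The count of genes higher in every low-*Vdac2* library was 6 to 8 with each of the 8 libraries left out and 6 under the other settings. With a library left out the sets lie apart more readily, and the share of all genes was not counted there. Depth limits *Spp1* most, with 6 counts in library 8.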
